A study of Homo sapiens with 6 samples.

Results

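The transcripts of 7 nuclear genes that encode assembly factors of the mitochondrial respiratory complexes were followed in LP-1, an established human multiple myeloma line, after depletion of the ubiquitin ligase gene RNF5. The 7 genes were chosen by name (COA8 also by its identifier) from a table of 1877 genes that the authors had themselves selected on the same comparison: every gene in it has a deposited absolute log2 fold change above 1 and a deposited adjusted p-value under 0.05. The direction and size of their difference between the groups is therefore a description and no independent evidence, and no p-value is read from it. All 7 were in the table, namely NDUFAF2 and NDUFAF4 of complex I, SDHAF4 of complex II, COA6, COX17 and COA8 of complex IV, and FMC1 of complex V. The knockdown group held 3 libraries of LP-1 cells carrying a short hairpin RNA against RNF5, and the control group 3 libraries of the same line with a non-target control, all grown in the same medium (RPMI-1640 with 15% serum). The sources used here do not give the number of hairpins or clones, the time after transduction or whether each library was its own culture, so the spread within a group may be technical. In bulk RNA, fewer cells of a type and less RNA per cell cannot be told apart.

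The respiratory chain passes electrons from complex I or II through complexes III and IV to oxygen and pumps protons that complex V uses to make ATP. Complexes I, III, IV and V are built from subunits of both the nuclear and the mitochondrial genome, while complex II is wholly nuclear. Assembly factors are not part of the finished enzymes: they insert cofactors such as flavin and copper, hold partly built modules together and protect exposed intermediates. The study's title names RNF5, a ubiquitin ligase of the endoplasmic reticulum membrane, with DNAJA1, a co-chaperone of HSP70, in connection with mitochondria and with the response to selinexor, an inhibitor of nuclear export.

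RNF5, the targeted gene, was at 95.4, 81.35 and 88.44 in the knockdown libraries and at 1595, 1649 and 1248 in the controls, which checks the labels. DNAJA1 was at 36.04, 41.44 and 37.82 in the knockdown and at 93.61, 80.85 and 71.32 in the controls, or 46.9% of the control mean. Control library 3 was the lowest control for both genes. Abundances are the deposited normalized values, whose scale the sources do not name, so they are compared between libraries for 1 gene and not between genes. Of 16 plasma cell and myeloma markers, SDC1, CD28 and ITGB7 were in the table, all higher in the knockdown, and the other 13 have no values here. Of the markers of other cells, none of 10 T and NK cell and none of 10 myeloid genes was listed, COL1A1 (of 8 fibroblast genes) was under 1 in every library and CLDN4 (of 8 epithelial genes) had means of 2.70 in the control and 1.36 in the knockdown. Their part in the results below was not tested.

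The 7 genes lie on 6 chromosomes. By GENCODE release 29 on GRCh38 they are NDUFAF2 (ENSG00000164182, chromosome 5, 60945129 to 61153037, plus strand), NDUFAF4 (ENSG00000123545, chromosome 6, 96889313 to 96897881, minus strand), SDHAF4 (ENSG00000154079, chromosome 6, 70566917 to 70589569, plus strand), COA6 (ENSG00000168275, chromosome 1, 234373456 to 234384049, plus strand), COX17 (ENSG00000138495, chromosome 3, 119654513 to 119677454, minus strand), COA8 (ENSG00000256053, named APOPT1 in that release, chromosome 14, 103562962 to 103607523, plus strand) and FMC1 (ENSG00000164898, chromosome 7, 139339457 to 139346319, plus strand). The exon-union lengths run from 1017 bases in NDUFAF2 to 3932 in COA8 (median 1524), and all 7 are below the median of 4632 bases over 519 listed protein-coding genes with a mean of at least 5 in either group.

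Neighbouring genes limit some of these values. COA8 overlaps the gene model AL139300.1, which starts at the same base, and KLC1 on the same strand. FMC1 overlaps LUC7L2 and the joined gene C7orf55-LUC7L2, and COX17 overlaps POPDC2, all on the same strand. NDUFAF4 has 4 annotated processed pseudogenes and COX17 has 1. COA6 overlaps the antisense RNA AL355472.1 at its start. NDUFAF2 overlaps AC008498.2 and the pseudogene AC008498.1, both on the other strand. The sources do not say how reads of overlapping or near-identical genes were assigned, or whether strand was used. The levels of COA8, FMC1, COX17, NDUFAF4, COA6 and NDUFAF2 are uncertain to that extent. None of the genes named as overlapping, and no pseudogene of these, was in the table.

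Promoter windows of all 7 genes (250 bases before and 50 after each RefSeq start on GRCh38.p14) were searched on both strands for letters of factors known for respiratory or stress genes. CGCNTGCGC, the core recognised by NRF1, a regulator of many nuclear respiratory genes, was in a window of 3 of the 7 genes (COX17, SDHAF4 and FMC1), against 9.02% of 27305 genes with a window. The ETS-type letters CCGGAAG were in 3 (NDUFAF4, COX17 and FMC1), against 12.2%. CCAAT was in 3 (NDUFAF2, COX17 and FMC1), against 39.7%, and TGACNNNGC, of the antioxidant response element, in 2 (NDUFAF2 and COX17), against 16.1%. The paired heat shock units GAANNTTC or TTCNNGAA were in none of the 7, against 16.2%, and AAGATGGC, of YY1, in none, against 3.52%. ETS and NRF1 matches did not overlap each other. COX17, FMC1 and COA6 each have 2 windows, and the NRF1 and CCAAT matches of COX17 lie in different ones. All matches of FMC1 lie in 1 window (chr7:139340222-139340521), which also holds the annotated start of LUC7L2 (139340359). The NRF1-type letters were in 9.80% of 592 genes listed as lower and in 8.10% of 494 listed as higher. Windows of the 7 genes had 52.67% to 78% G and C, beside a median of 58.67% over all windows. Whether base content bears on the matches was not tested. A match describes letters only and is no evidence of binding. The stretches below are shown because they carry the NRF1-type letters, in capitals, 5′ to 3′ on the strand of the gene, for COX17 (chr3:119677455-119677656, minus), SDHAF4 (chr6:70566900-70566929, plus) and FMC1 (chr7:139340406-139340435, plus). The COX17 stretch lies wholly before the annotated start of the gene, the SDHAF4 site spans its start, and the FMC1 site lies inside the overlapping gene models of FMC1 and LUC7L2. The longer run of capitals in COX17 holds 2 overlapping matches.
COX17: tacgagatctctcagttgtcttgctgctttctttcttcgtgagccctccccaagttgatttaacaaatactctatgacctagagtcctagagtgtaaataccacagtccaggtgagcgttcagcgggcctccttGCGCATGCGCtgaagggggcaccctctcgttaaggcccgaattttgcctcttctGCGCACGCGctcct
SDHAF4: tactgctttgCGCCTGCGCggaggctcggg
FMC1: GCGCAGGCGcggggactacgGCGCAGGCGc

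NDUFAF2 and COA8 begin close to a gene on the other strand. The start of NDUFAF2 is 56 bases from that of ERCC8, a DNA repair gene, and the start of COA8 is 131 bases from that of BAG5, which encodes a co-chaperone of HSP70. Neither ERCC8 nor BAG5 was in the table, so they have no values here. Bases between the paired starts that lie outside annotated exons and before the RefSeq start are shown with CCAAT letters of either strand in capitals. The stretches are those of NDUFAF2 (chr5:60945074-60945128, plus) and COA8 (chr14:103562832-103562959, plus). The NDUFAF2 stretch holds 2 such matches, 1 in each direction, and the COA8 stretch holds 0.
NDUFAF2: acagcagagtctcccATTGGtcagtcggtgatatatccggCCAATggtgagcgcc
COA8: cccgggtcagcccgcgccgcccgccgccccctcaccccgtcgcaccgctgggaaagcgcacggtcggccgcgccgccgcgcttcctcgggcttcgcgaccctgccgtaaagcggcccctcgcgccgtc

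Both complex I factors were lower in the knockdown. NDUFAF2, a paralog of the subunit NDUFA12 that binds a late complex I intermediate, had abundances of 38.43, 44.62 and 57.89 in the controls and of 24.86, 19.04 and 17.31 in the knockdown, with libraries here and below in the order 1, 2, 3. The lowest control was 1.55 times the highest knockdown library, so the groups did not overlap. The mean went from 46.98 ± 9.94 to 20.4 ± 3.96 (SD, n = 3 each), which is 43.4% of the control, the lowest share among the 7 genes. NDUFAF4, which acts with NDUFAF3 early in complex I assembly, was at 26.37, 22.78 and 33.83 in the controls and at 13.98, 14.67 and 9.65 in the knockdown. Its groups did not overlap either, and knockdown library 3 was the lowest. The mean went from 27.66 ± 5.64 to 12.8 ± 2.72, or 46.2% of the control. On the log2(value + 1) scale the fold changes from limma were -1.16 (SE 0.21) for NDUFAF2 and -1.06 (SE 0.22) for NDUFAF4.

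By the library values, SDHAF4 stood closest to no difference. It encodes a factor that binds the flavin-carrying subunit SDHA of complex II before SDHA joins SDHB. Its abundance was 10.94, 9.77 and 15.68 in the controls and 9.45, 5.69 and 9.74 in the knockdown. The lowest control (library 2, 9.77) and the highest knockdown library (library 3, 9.74) were nearly equal, so the groups were barely separate. Knockdown library 2 was well below the other two of its group. The mean went from 12.13 ± 3.13 to 8.29 ± 2.26, or 68.4% of the control, with a log2 fold change of -0.50 (SE 0.24). The authors' deposited table gives SDHAF4 a log2 fold change of -1.23, larger in size than those of NDUFAF2, COX17, COA8 and FMC1. The log2 ratio of the library means (-0.55) was above that value by 0.68. Such an excess was larger in 3 of 431 genes with both means at least 5, where its median was 0.17 (quartiles 0.11 and 0.22). The deposited fold and the deposited library values of SDHAF4 therefore describe different sizes of change.

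The 3 complex IV factors were lower as well. COX17, the copper chaperone of the intermembrane space that supplies SCO1 and COX11, was at 217.44, 228.89 and 449.50 in the controls and at 158.37, 133.32 and 139.20 in the knockdown. Control library 3 held about as much as the other controls together, and the control SD was 43.8% of its mean against 9.12% in the knockdown. The mean went from 298.6 ± 130.8 to 143.6 ± 13.1, or 48.1% of the control. COA6, an intermembrane space protein that takes part in copper delivery to the subunit MT-CO2, was at 30.26, 25.66 and 47.96 in the controls and at 17.07, 16.50 and 14.77 in the knockdown. Its knockdown libraries lay close together (16.1 ± 1.20) and at 46.5% of the control mean of 34.6 ± 11.8. COA8, which protects complex IV under oxidative stress, was at 44.49, 37.77 and 52.65 in the controls and at 33.85, 22.58 and 21.61 in the knockdown. Knockdown library 1 came near the controls, and the lowest control was 1.12 times that library. The mean of COA8 went from 44.97 ± 7.45 to 26.0 ± 6.80, or 57.8% of the control. The log2 fold changes were -0.97 (SE 0.24) for COX17, -1.01 (SE 0.23) for COA6 and -0.78 (SE 0.21) for COA8. In the authors' deposited table COA8 is at -1.001, next to the limit of 1 by which genes were listed, and it was the member nearest to that limit. Genes on the other side of the limit have no values here.

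FMC1 takes part in assembly of the F1 part of ATP synthase, complex V. It was at 21.96, 27.98 and 48.00 in the controls and at 20.20, 14.63 and 19.21 in the knockdown. Control library 1 was 1.09 times knockdown library 1, so the groups were separate but close. The mean went from 32.6 ± 13.6 to 18.0 ± 2.97, or 55.2% of the control, with a log2 fold change of -0.76 (SE 0.26). Most of the control spread came from library 3, at 1.92 times the mean of the other controls.

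**Figure D1:**
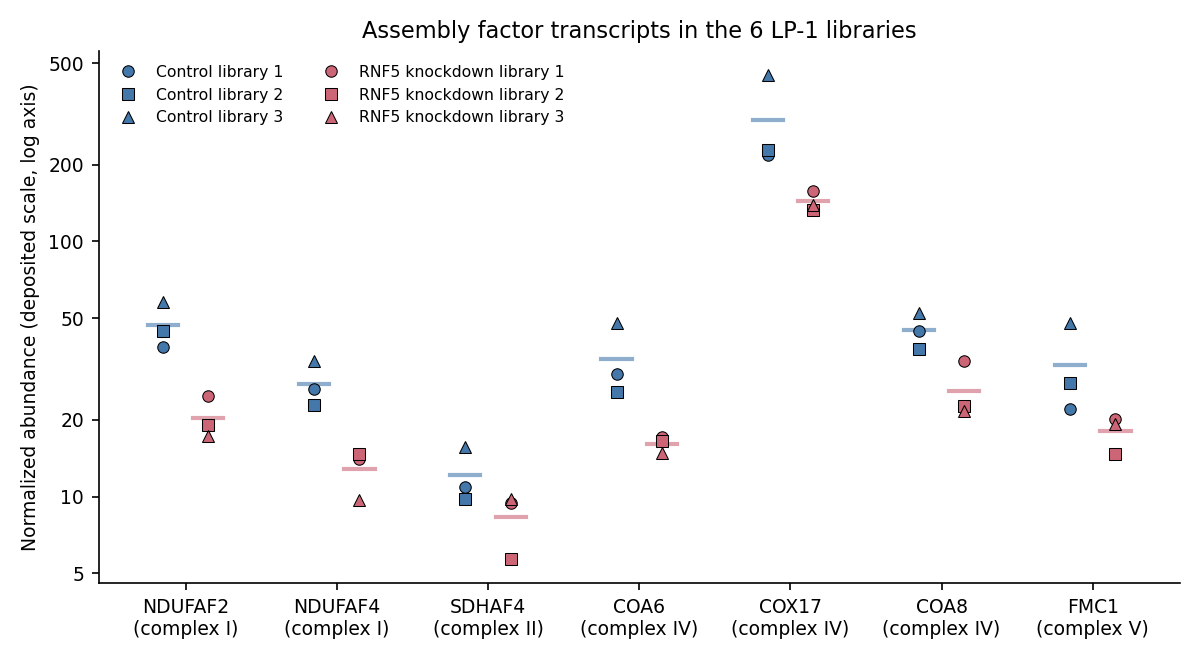
Normalized abundance (log axis) of the 7 assembly factor genes in each of the 3 control (blue) and 3 RNF5 knockdown (red) libraries, with lines at the group means. Control library 3 (blue triangle) is the highest point of every gene, and the groups are nearest to each other for SDHAF4 (9.77 against 9.74).

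All 7 knockdown means were below the control means, and in all 7 the 3 knockdown values lay below the 3 control values. Over the whole table the authors listed 50.8% of genes as lower, and in 45.5% of genes the groups did not overlap with the knockdown lower. In limma, 6 of the 7 were called lower and 0 higher at a Benjamini-Hochberg adjusted p under 0.05, against 42.0% called lower and 55.7% called higher of the 1290 genes tested. Among listed protein-coding genes with a mean of at least 5 in either group, 67.1% of the 213 no longer than COA8 were listed as lower, against 48.0% of the 306 longer ones. Nothing is read from these counts, since the genes came into the table by the same comparison. SDHAF4 was the member that limma did not call and 1 of 30 such genes, which is likewise a description. The median log2 fold change of the 7 was -0.97 (range -1.16 to -0.50), beside 0.73 over all genes tested and -0.93 over those called lower.

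The order of the limma fold changes ran from NDUFAF2 through NDUFAF4, COA6, COX17, COA8 and FMC1 to SDHAF4. Taken within each library, the gaps between neighbours in that order were between 0.02 and 0.19 on the log2 scale and each smaller than its SE, except from FMC1 to SDHAF4 (0.26, SE 0.21). Over the whole order, NDUFAF2 and SDHAF4 were 0.66 apart (SE 0.26). These gaps had no test. The authors' deposited log2 fold changes gave another order: NDUFAF4 (-1.30), COA6 (-1.26), SDHAF4 (-1.23), NDUFAF2 (-1.19), COX17 (-1.11), FMC1 (-1.06) and COA8 (-1.001). The limma order therefore holds for the library values only.

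Control library 3 was the highest control for all 7 genes. It was 1.28 times (COA8) to 2.01 times (COX17) the mean of control libraries 1 and 2, with a median of 1.51. As a percentage of each gene's control mean, the median of the 7 genes was 87.4, 82.4 and 129 for the controls and 53.0, 46.9 and 46.6 for the knockdown. The table as a whole went the other way. Among 720 genes with a mean of at least 5 in either group, control library 3 was the highest control in 114 (15.8%). Its median ratio to the other controls was 0.751. In the 331 of these listed as lower, control library 3 was the highest control in 82 (24.8%), with a median ratio of 0.808. The ratio also moved with gene length. In 213 protein-coding genes no longer than COA8 it was the highest control in 65 (30.5%), and in 306 longer ones in 14 (4.58%). Across the 519 protein-coding genes Spearman's rho between length and the ratio was -0.44, a description over genes that share the same libraries. Removing library 3, or a trend with length, gave the following values.

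**Figure D2:**
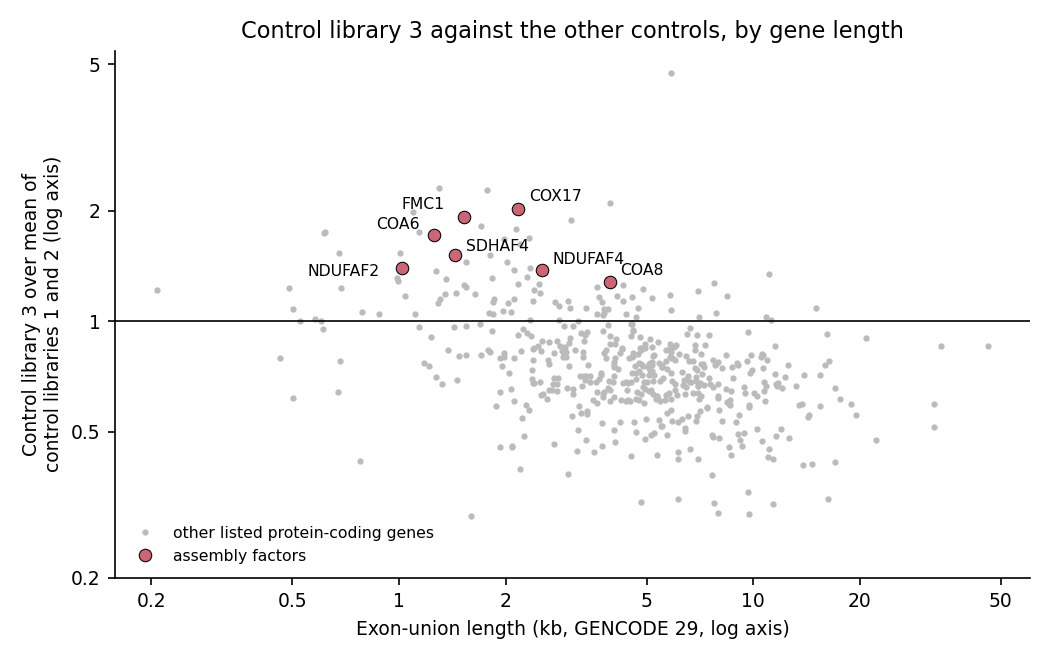
Ratio of control library 3 to the mean of control libraries 1 and 2 (log axis) against exon-union length in kb (log axis) for 519 listed protein-coding genes. The 7 assembly factors (red) all lie above 1 and left of 4 kb, while the median ratio of genes longer than COA8 is 0.684.

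Without control library 3 the differences were smaller. Since the groups did not overlap with all 6 libraries, leaving 1 out could not turn their direction. The median log2 fold change was -0.67 in place of -0.97. The knockdown mean was then 49.1% of the control for NDUFAF2, 51.9% for NDUFAF4, 57.6% for COA6, 63.2% for COA8, 64.4% for COX17, 72.1% for FMC1 and 80.1% for SDHAF4. The log2 fold change of COX17 went to -0.64 (SE 0.09), that of FMC1 to -0.45 (SE 0.17) and that of SDHAF4 to -0.32 (SE 0.22), each over 1.5 times smaller than with all libraries. Without knockdown library 2, SDHAF4 was at -0.28. A linear trend of length, fitted over tested genes of every class, was removed within each library, a check added after the data were seen. The median was then -0.98 and the 7 genes ran from -1.18 to -0.52. Among the 519 protein-coding genes Spearman's rho between length and log2 fold change was 0.20. A trend over protein-coding genes alone was not removed, so the check does not cover it.

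**Figure D3:**
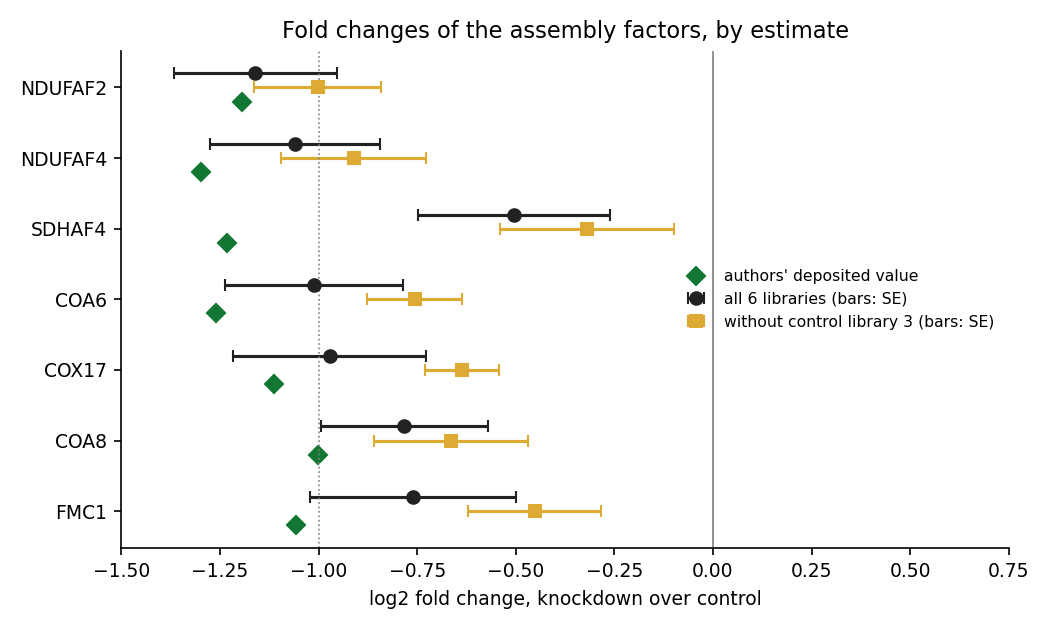
Log2 fold change of each gene from limma with all 6 libraries (black) and without control library 3 (yellow), with SE bars, and the authors' deposited value (green). The dotted line marks -1, the deposited limit. The green and black points are farthest apart for SDHAF4 (-1.23 and -0.50).

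Most other genes of the respiratory chain were not in the table, and the listed mitochondrially encoded mRNAs went the other way. Of 67 assembly factors in the lists used, these 7 were the ones in the table. None of the 9 complex III factors and none of the 84 nuclear-encoded subunits of the 5 complexes was listed, so none has values here. Of 13 genes for copper delivery, COX17 and COA6 were listed, and of 12 cristae genes none. The import pathway of the intermembrane space oxidises proteins such as COX17 and COA6. Of 17 genes in the list for this pathway, CHCHD10 was in the table, and being in the list does not make it part of the oxidising machinery. It encodes a small intermembrane space protein with paired cysteine motifs like those of COX17, with 98.27, 134.70 and 151.44 in the controls and at 73.27, 42.68 and 58.62 in the knockdown (2.20-fold lower by the means), and limma called it lower. Control library 3 was its highest control too.

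Mitochondrially encoded subunit mRNAs of the same complexes were higher in the knockdown. Of 13 such mRNAs 10 were listed and limma called all 10 higher, beside 55.7% called higher over all genes tested, with a median log2 fold change of 1.72 (range 1.17 to 2.05). In complex I the ratio of means was 4.13 for MT-ND5, 3.83 for MT-ND6, 3.21 for MT-ND2 and 2.70 for MT-ND4. MT-CYB of complex III was 3.37-fold higher. In complex IV, MT-CO2, the subunit that receives copper by way of COX17 and COA6, was 3.56-fold higher, MT-CO1 3.98-fold and MT-CO3 2.63-fold. MT-ATP6 and MT-ATP8 of complex V were 3.19-fold and 2.26-fold higher. These genes have near-identical nuclear copies, and how shared reads were assigned is not stated, so their levels are uncertain. Control library 3 was the highest control for 4 of these 10. The authors had selected these genes on the same libraries too, so the contrast in direction between the assembly factors and these mRNAs is a description.

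**Figure D4:**
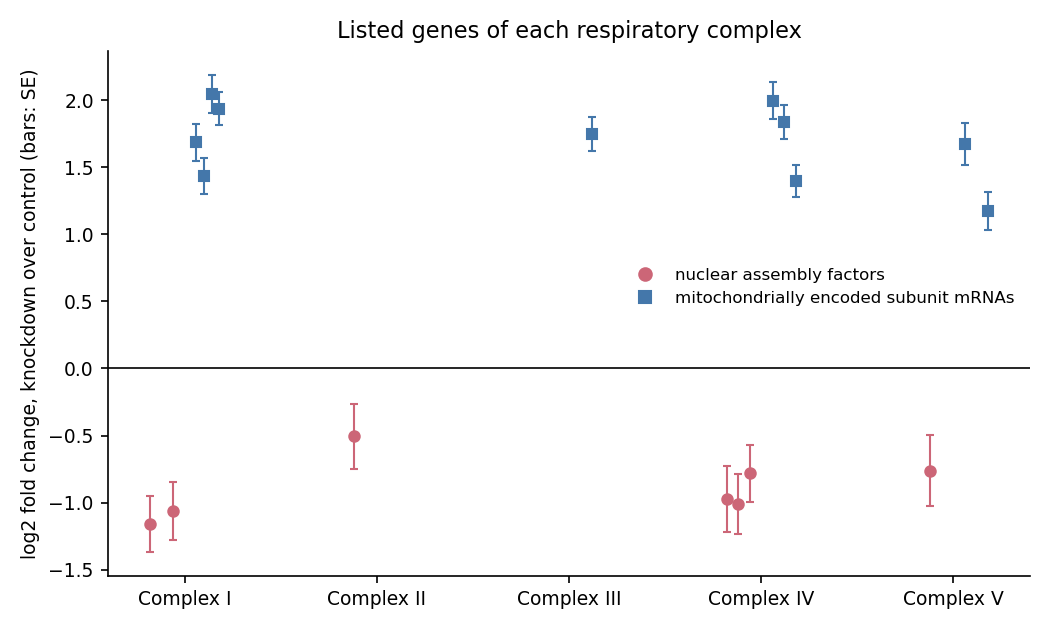
Log2 fold change (knockdown over control, SE bars) of the listed nuclear assembly factors (red circles) and mitochondrially encoded subunit mRNAs (blue squares) of each complex. The assembly factors lie between -1.16 and -0.50 and the mitochondrial mRNAs between 1.17 and 2.05, and no assembly factor of complex III was listed.

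The genes whose profile over the 6 libraries lay nearest to the mean profile of the 7 members were sought among 528 named genes with a mean of at least 5 over the 6 libraries, by Euclidean distance of log2(value + 1) after subtracting the control mean. They were ILRUN-AS1, an antisense RNA (distance 0.097), PFDN2, a subunit of the prefoldin chaperone (0.20), SNHG32, a small nucleolar RNA host gene (0.21), the joined gene SLX1A-SULT1A3 (0.24) and TXN, thioredoxin (0.26). The median distance over the 528 was 3.29, and the members themselves lay between 0.33 (COA6) and 0.82 (SDHAF4). Their control library 3 was at 1.51 to 1.75 times the other controls and their knockdown means at 50.2% to 52.3% of the control, both of which follow from the choice of genes with the members' profile. PFDN2, as an example, was at 252.06, 251.70 and 385.88 in the controls and at 158.20, 138.14 and 150.56 in the knockdown. If strand was not used in counting, reads of ILRUN-AS1 and of ILRUN cannot be told apart, and SLX1A-SULT1A3 has a near-identical copy, so both values are uncertain.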

How the data were processed

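RNA from 6 LP-1 libraries was sequenced, 3 with a short hairpin against RNF5 and 3 with a non-target control. The deposited values per library were a normalized signal per gene, with 2 decimals and no stated scale, so depth and counting error are unknown. The fold ratio and its log2 value were made by the authors and deposited beside a p-value and an adjusted p-value from the authors, with no stated test. Bowtie 0.12.2 and hg19 are named, with no step, in the submitters' processing notes. Coordinates here are GRCh38 and come from GENCODE release 29 and RefSeq, matched by gene identifier or symbol, and were not mixed with hg19. Lengths by identifier matched 1721 genes (91.7%).

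Log2 fold changes and SE came from limma (version 3.58.1, R 4.3.3, trended variance) applied to log2(value + 1), which understates the change of low values. A gene entered if at least 3 libraries reached 1 (1290 of 1877, all 7 members), with group alone in the design and Benjamini-Hochberg adjustment. The fit was tested on simulated data with normal noise in which most genes were unchanged. Most genes of this preselected table were called, so that test does not cover the calls made here. The values per library imply log2 ratios above the authors' by a median of 0.17. The 7 genes and all lists were chosen with earlier results of these data known. Named were the 7 members, list members in the table (at most 4 a list), RNF5, DNAJA1 and the 5 nearest profiles. No table of protein sequences was used here, so the planned protein features were not described.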

Additional observations from a re-analysis of the deposited data

How the results depend on the processing

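The 7 genes were recomputed under 13 alternatives (pseudocount 0.1 or 5, no filter, no trend, rescaling, replicate block, length trend removed, and each library left out). Since the groups did not overlap, leaving out a library or changing the pseudocount could not turn a direction, and the filter, trend and block leave the fold changes as they are. Rescaling the knockdown libraries by the 0.17 log2 units that separate the means from the deposited fold changes moved the median of the 7 from -0.97 to -1.14. Leaving out 1 library gave medians from -1.12 (without control library 2) to -0.67 (without control library 3), and 5 to 7 of the 7 genes called lower by limma. The 5 came without knockdown library 2, when FMC1 and SDHAF4 were not called. All 7 were called without knockdown library 3, without control library 2, after the rescaling and with the length trend removed. Over all genes tested, 522, 428, 554 and 516 were called lower in those settings, and 527 without knockdown library 2. With all libraries 542 of 1290 (42.0%) were called lower. Nothing is read from the member counts, since the table was selected on this comparison. The 10 mitochondrially encoded mRNAs and CHCHD10 were called under each alternative, beside 1260 of 1290 genes called with all libraries, since the table was selected on this comparison. Calls over the whole table ranged from 1076 to 1785. Without the filter, 880 genes were called lower in place of 542, with more genes tested. Leaving out 1 library gave 415 to 527 lower and 555 to 716 higher calls. The replicate numbers of the titles did not pair the libraries: deviations of same-numbered libraries correlated at -0.16, -0.07 and -0.08, and no library correlated best with its own number. With the replicate block 1272 genes were called in place of 1260, and 6 of the 7 members as before. The depth is unknown, and 3 libraries a group limit the precision.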
